A study of Mus musculus with 12 samples.

Results

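The genes of glycolysis and of glucose and lactate transport were followed across RNA-seq libraries of mouse embryonic stem cells (ESCs) with and without a knockout (KO) of Etl4. The set was fixed by gene symbol and comprised 30 of the 24421 genes in the count tables. It held the glucose carriers Slc2a1 and Slc2a3, the enzymes of each glycolytic step with their isozymes, the lactate dehydrogenases Ldha and Ldhb, the lactate carriers Slc16a1 and Slc16a3, the regulatory enzymes Pfkfb1 to Pfkfb4, and the branch enzymes Bpgm, Galk1 and G6pdx. All 30 symbols were present in both tables. The choice used no measured value, but it was made with earlier results of these data known.

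All 12 libraries came from androgenetic haploid ESCs, cells with a single chromosome set of paternal origin, on a C57BL/6 background. In the parental line OdG there were 2 libraries of KO line 1 (Etl4 KO), 2 libraries of KO line 2 (Etl4 KO) and 2 wild-type (WT) libraries. In the parental line EG1 there were 3 libraries of 1 Etl4 KO line and 3 WT libraries. The title of the study concerns a screen in which loss of Etl4 stabilised haploidy, so the comparison of KO with WT asks how the transcriptome of such cells differs. The labels do not describe the edit, the passage number or the culture medium, and do not say whether replicates were grown separately. The p-values therefore speak to the spread among these libraries alone, and that spread may be technical. Each KO line is a single line, and the 2 parental lines were counted in separate tables, so parental line and table cannot be told apart.

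Glycolysis splits glucose into pyruvate in the cytosol. Glucose enters through SLC2A carriers and is trapped by hexokinase. Phosphofructokinase commits it to the pathway under the control of the PFKFB enzymes, which make and remove its strongest activator. Lactate dehydrogenase then turns pyruvate into lactate, which leaves the cell through SLC16A carriers. Pluripotent stem cells are known for a high glycolytic rate, and many of these genes are textbook targets of the hypoxia-inducible factors and of Myc.

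The libraries held 16110028 to 19706599 counts assigned to genes, so that 1 CPM (a count scaled to a common library size over all 12 libraries) stood for 16 to 19.6 counts. Etl4 itself had 96.2 and 99.5 CPM in OdG KO line 1, 108 and 113 CPM in line 2, and 208 and 203 CPM in OdG WT. It had 132, 136 and 134 CPM in EG1 KO, against 268, 267 and 262 CPM in EG1 WT. The level in every KO library was below that in every WT library of its parental line, but transcripts remained in all KO libraries. All 10 pluripotency markers on the list used here were detected in every group. They summed to 6610 to 6630 CPM in OdG KO line 1, 6280 to 6310 CPM in line 2 and 5780 to 5940 CPM in OdG WT. In EG1 they summed to 8110 to 8310 CPM in KO and 8160 to 8310 CPM in WT. By the edgeR test used below, 9 rose and 1, Tdgf1, fell in each OdG KO line and in their mean. For the mean, 29.4% of all genes were higher and 30.5% lower. Tdgf1 had 1114 and 1138 CPM in line 1 and 931 and 944 CPM in line 2, against 1539 and 1558 CPM in OdG WT. In EG1 KO 3 rose and 1 fell, beside 3.60% of all genes higher and 4.06% lower.

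Most of the 30 genes fell in both OdG KO lines. Their share of all counts was 1.53% and 1.53% in the libraries of line 1 and 1.51% and 1.54% in those of line 2, against 2.83% and 2.80% in OdG WT. In the EG1 cells it was 1.43%, 1.37% and 1.38% in KO, against 1.54%, 1.52% and 1.54% in WT. The OdG WT libraries thus stood apart from all others, while EG1 WT lay at the level of the OdG KO lines. In bulk RNA, fewer cells of a kind and less RNA per cell cannot be told apart.

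By edgeR's quasi-likelihood test, with p-values adjusted over all genes, 26 of the 30 members fell and 1 rose in line 1. Of all 14413 genes tested there, 26.1% were lower and 26.8% higher. In line 2, 25 members fell and 1 rose, beside a background of 29.8% lower and 30% higher. For the mean of both lines, 25 fell and 0 rose (0 also at an unadjusted p under 0.05 and by DESeq2), with 30.5% of all genes lower and 29.4% higher. By DESeq2, 24 members fell in line 1, 22 in line 2 and 24 for the mean. DESeq2 called 2427, 3069 and 3131 of all genes lower in the same order. The median log2 fold change of the members was -0.81 in line 1, -0.83 in line 2 and -0.82 for the mean, whereas that of all genes was -0.01 in each of these. These 3 comparisons share the OdG WT libraries. The same picture held per library, since in 25 of 30 members all 4 OdG KO libraries lay below both OdG WT libraries, which was so for 27.9% of all 14977 genes compared across the 12 libraries. The exceptions were Gapdh, Eno3, Pfkfb2, Bpgm and G6pdx. Eno1 is among the members that fell and passed the filter on low counts through the OdG WT libraries alone, so it had to differ. Without it the numbers that fell were 25 in line 1, 24 in line 2 and 24 for the mean.

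**Figure D1:**
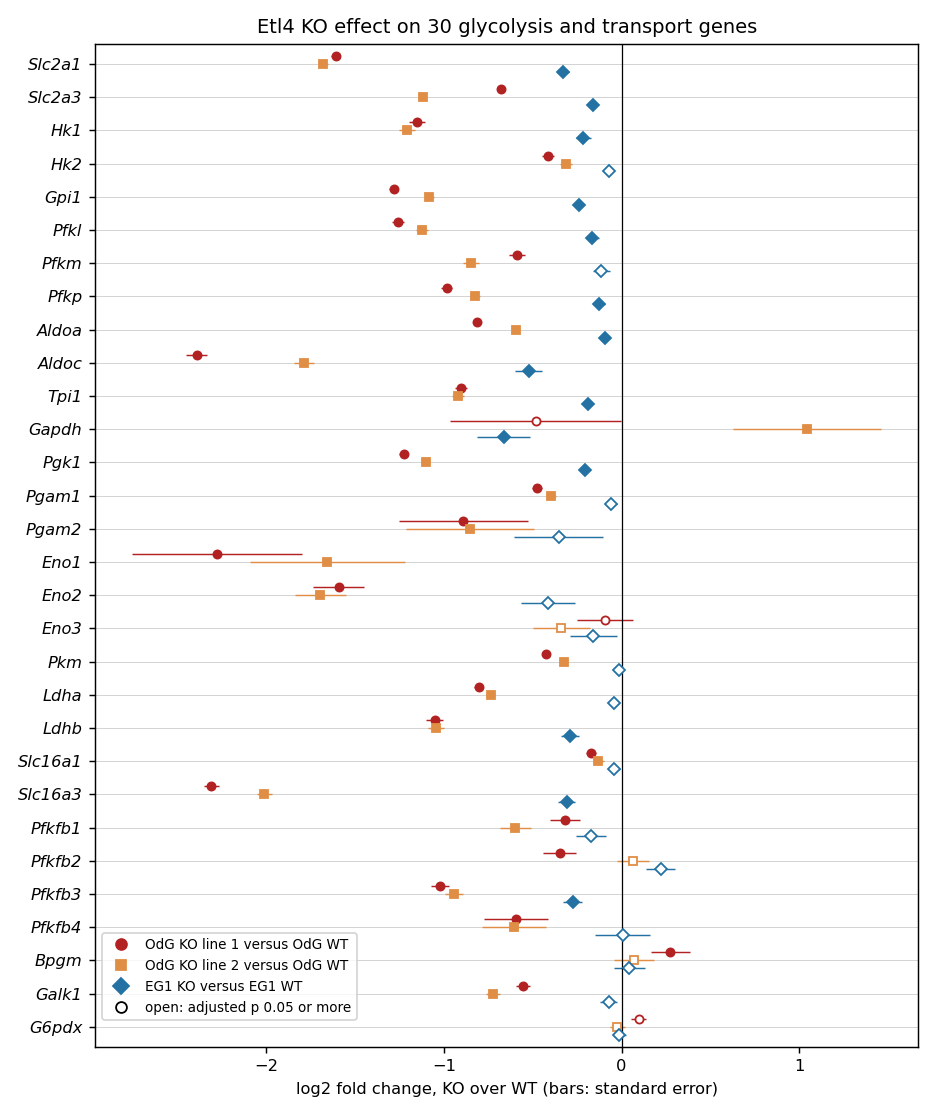
Log2 fold change of KO over WT (horizontal axis) for each of the 30 genes (vertical axis, in pathway order), with bars of 1 standard error. Circles and squares are OdG KO lines 1 and 2 against OdG WT, diamonds are EG1 KO against EG1 WT, and open symbols had an adjusted p of 0.05 or more. Most OdG symbols lie between -0.3 and -1.7, and the EG1 diamonds lie much nearer to 0. Aldoc, Slc16a3 and, in line 1, Eno1 (-2.28) lie further left. Eno1 was not tested in EG1.

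The sequence just before the transcription start was examined in the members that had an entry among the RefSeq promoters (build GRCm38.p6), which were 29 of 30. Slc2a3 is not among them. Both strands of the 250 bases before each listed start were searched for ACGTG and GCGTG, the core letters of the hypoxia response element. ACGTG also lies within the E-box CACGTG, which reads the same on both strands and so counts as 2 matches. Of the 29 members, 24 (82.8%) had at least 1 match, against 41.5% of all 27025 genes with an entry and 59.7% of the 11216 genes with an entry that were tested across the 12 libraries. A gene was scored by the start with the most matches, so genes with more listed starts had more chances. Counted by start, 73.9% of the 46 starts of members had a match, against 38.6% of all 32851 starts. At least 2 matches were present in 51.7% of the members, against 30.4% of those tested genes. A match occurred in 20 of the 24 members with an entry that fell in the mean of the OdG KO lines and in 4 of the 5 that did not. Those 20 include Eno1, which had to differ. A match is a description of letters and not of a bound site. The promoters below are those of the genes that the levels described next turn on. They include Slc16a1, which has 4 matches and changed little, and Gpi1, which has none and fell strongly. For Ldha the start with the most matches is shown, and capitals mark the matches on either strand.
Slc2a1, chr4:119108495-119108744, plus strand: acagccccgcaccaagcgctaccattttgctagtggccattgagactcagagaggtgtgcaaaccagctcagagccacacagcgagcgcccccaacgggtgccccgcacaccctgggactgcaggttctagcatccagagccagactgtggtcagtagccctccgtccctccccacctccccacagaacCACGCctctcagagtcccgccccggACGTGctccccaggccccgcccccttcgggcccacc
Pgk1, chrX:106186850-106187099, plus strand: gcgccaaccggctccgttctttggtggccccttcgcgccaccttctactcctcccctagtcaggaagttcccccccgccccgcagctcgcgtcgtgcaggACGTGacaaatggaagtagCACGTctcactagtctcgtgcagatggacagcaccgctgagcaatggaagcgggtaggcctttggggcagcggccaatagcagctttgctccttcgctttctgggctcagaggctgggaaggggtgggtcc
Ldha, chr7:46845554-46845803, plus strand: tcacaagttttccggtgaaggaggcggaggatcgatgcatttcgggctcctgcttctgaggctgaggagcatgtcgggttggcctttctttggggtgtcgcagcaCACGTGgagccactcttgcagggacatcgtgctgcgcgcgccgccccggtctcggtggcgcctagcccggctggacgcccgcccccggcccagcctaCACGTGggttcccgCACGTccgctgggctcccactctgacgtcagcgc
Slc16a1, chr3:104638414-104638663, plus strand: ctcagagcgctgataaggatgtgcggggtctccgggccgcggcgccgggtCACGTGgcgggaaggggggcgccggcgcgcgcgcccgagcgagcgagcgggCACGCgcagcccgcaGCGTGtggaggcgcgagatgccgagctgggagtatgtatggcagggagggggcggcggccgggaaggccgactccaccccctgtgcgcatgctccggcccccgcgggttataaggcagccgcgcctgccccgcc
Slc16a3, chr11:120948817-120949066, plus strand: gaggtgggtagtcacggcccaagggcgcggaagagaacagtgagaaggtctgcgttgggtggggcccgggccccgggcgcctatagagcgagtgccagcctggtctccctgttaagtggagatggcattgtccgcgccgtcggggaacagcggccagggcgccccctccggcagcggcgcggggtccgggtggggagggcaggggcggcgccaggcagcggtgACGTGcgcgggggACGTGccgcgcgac
Gpi1, chr7:34230337-34230586, minus strand: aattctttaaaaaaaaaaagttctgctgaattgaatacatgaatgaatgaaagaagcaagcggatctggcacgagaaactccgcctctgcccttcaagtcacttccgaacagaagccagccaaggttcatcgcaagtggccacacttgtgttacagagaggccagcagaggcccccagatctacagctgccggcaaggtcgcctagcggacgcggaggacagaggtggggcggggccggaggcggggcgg

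Of the 2 glucose carriers, Slc2a1 (GRCm38 chr4:119108711-119137983, plus strand), the basal glucose carrier of most cells, fell most. It had 887 and 895 CPM in OdG KO line 1 and 841 and 851 CPM in line 2, against 2730.1 and 2710.0 CPM in OdG WT. The 4 KO libraries thus stood far below both WT libraries. The log2 fold change was -1.61 (SE 0.02, edgeR adjusted p = 6.84e-18) in line 1 and -1.68 (SE 0.02, edgeR adjusted p = 3.46e-18) in line 2, or 32.8% of the WT level in line 1 and 31.2% in line 2. In EG1 cells Slc2a1 had 509, 484 and 484 CPM in KO, against 626, 597 and 622 CPM in WT. The KO libraries were again all lower, with a log2 fold change of -0.33 (SE 0.03, edgeR adjusted p = 8.83e-09).

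Slc2a3 (GRCm38 chr6:122727809-122801640, minus strand) encodes a carrier with a high affinity for glucose and was, per kilobase of exon, the more abundant of both in every group. Its level was 4491 and 4503 CPM in OdG KO line 1, 3277 and 3323 CPM in line 2, and 7254 and 7124 CPM in OdG WT. The 2 KO lines did not overlap each other or OdG WT. The fall was larger in line 2, with a log2 fold change of -1.12 (SE 0.02), than in line 1, with -0.68 (SE 0.02), and the difference between the lines was -0.44 (SE 0.02, edgeR adjusted p = 4.71e-12). In EG1 cells it had 2041, 2074 and 2074 CPM in KO, against 2301, 2307 and 2282 CPM in WT, a log2 fold change of -0.16 (SE 0.03, edgeR adjusted p = 3.36e-05). All EG1 KO libraries lay below all EG1 WT libraries, and both EG1 groups lay below every OdG library.

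The hexokinases, which phosphorylate glucose, moved by different amounts. Hk1, the isozyme found in most tissues, had 127 and 121 CPM in OdG KO line 1 and 117 and 121 CPM in line 2, against 287 and 264 CPM in OdG WT. Hk2, the insulin- and hypoxia-responsive isozyme, had 509 and 509 CPM in line 1 and 541 and 545 CPM in line 2, against 702 and 653 CPM in OdG WT. Neither gene's KO libraries overlapped OdG WT. For the mean of both lines Hk1 fell by 1.18 on the log2 scale (SE 0.04) and Hk2 fell by 0.36 (SE 0.03). In EG1 KO, Hk1 was at 96.1, 95.7 and 91.3 CPM, against 115, 109 and 104 CPM in EG1 WT, and fell by 0.21 on the log2 scale (edgeR adjusted p = 0.00128). Hk2 did not pass the test there, with a log2 fold change of -0.07 (edgeR adjusted p = 0.167).

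Gpi1, which converts glucose phosphate to fructose phosphate, had 689 and 687 CPM in OdG KO line 1 and 780.5 and 794 CPM in line 2, against 1681 and 1668 CPM in OdG WT. Its KO libraries were at less than the level of either WT library, with log2 fold changes of -1.28 (SE 0.03) in line 1 and -1.08 (SE 0.03) in line 2. In EG1 KO it had 875, 816 and 812 CPM, against 996, 958 and 993 CPM in EG1 WT, and fell by 0.24 on the log2 scale (edgeR adjusted p = 1.91e-06). The Gpi1 transcript shares 25.3% of its 50-base windows and 7.4% of its 100-base windows with transcripts of other genes in the reference annotation. A read of that length from such a window matches more than 1 gene. In 50-base windows the same limit holds for Pgam1 with 41.5%, Pkm with 34.4%, Ldhb with 27% and Pfkfb2 with 25.1%, beside the genes named further on. In 100-base windows the shares were 39.7% for Pgam1, 9.82% for Pkm, 8.8% for Ldhb and 23.9% for Pfkfb2.

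All 3 phosphofructokinase genes fell in OdG KO. Pfkl, the liver type, had 178 and 175 CPM in line 1 and 194 and 192 CPM in line 2, against 425 and 418 CPM in OdG WT. Pfkp, the platelet type, had 404 and 408 CPM in line 1 and 449 and 456 CPM in line 2, against 807 and 800.1 CPM in OdG WT. Both were lower in every KO library, and the mean of lines gave log2 fold changes of -1.19 (SE 0.03) for Pfkl and -0.90 (SE 0.02) for Pfkp. Pfkm, the muscle type, had 78.3 and 74.7 CPM in line 1 and 64.6 and 63.1 CPM in line 2, against 116 and 114 CPM in OdG WT. It fell by 0.59 on the log2 scale in line 1 and by 0.85 in line 2, and the lines differed by -0.26 (SE 0.05, edgeR adjusted p = 3e-04). In EG1 KO, Pfkl fell by 0.16 and Pfkp by 0.13 on the log2 scale, whereas Pfkm had a log2 fold change of -0.11 that missed the threshold (edgeR adjusted p = 0.151). The Pfkp call in EG1 gave an adjusted p of 0.0598 without EG1 WT replicate 2, 0.0673 without EG1 WT replicate 3 and 0.0811 without EG1 KO replicate 3, and the Pfkm value passed at 0.0286 without EG1 KO replicate 1.

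Among the enzymes from aldolase to enolase, Aldoc showed the largest fall. Aldoc, the aldolase best known from brain, had 20.6 and 20 CPM in OdG KO line 1 and 31.2 and 30.4 CPM in line 2, against 107 and 106 CPM in OdG WT. These groups did not overlap, and the log2 fold change was -2.39 (SE 0.06, edgeR adjusted p = 2.45e-15) in line 1 and -1.79 (SE 0.06, edgeR adjusted p = 3.52e-14) in line 2. In EG1 cells Aldoc had 21.7, 17.7 and 20.4 CPM in KO, against 28.8, 27.9 and 29.0 CPM in WT, a log2 fold change of -0.52 (SE 0.07, edgeR adjusted p = 6.92e-06). Aldoa, the main aldolase here, had 1355 and 1350.2 CPM in line 1 and 1564 and 1573 CPM in line 2, against 2363 and 2395 CPM in OdG WT. It fell by 0.81 on the log2 scale in line 1 and by 0.59 in line 2. In EG1 it was 93.9% of the WT level (edgeR adjusted p = 0.0339), a call with adjusted p-values from 0.0547 to 0.158 when EG1 WT replicate 1, 2 or 3 or EG1 KO replicate 2 or 3 was left out.

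Tpi1, which interconverts the triose phosphates, had 344 and 347 CPM in OdG KO line 1 and 338 and 343 CPM in line 2, against 629 and 665 CPM in OdG WT. Pgk1 (GRCm38 chrX:106187100-106203699, plus strand), the first enzyme of the pathway to return ATP, had 1043 and 1048 CPM in line 1 and 1113 and 1156 CPM in line 2, against 2418 and 2469.7 CPM in OdG WT. No KO library of either gene reached a WT library. Tpi1 fell by 0.91 and Pgk1 by 1.16 on the log2 scale for the mean of lines, and in EG1 KO by 0.19 (edgeR adjusted p = 0.000119) and 0.21 (edgeR adjusted p = 2.18e-06). Of the phosphoglycerate mutases, Pgam1 had 639.6 and 615 CPM in line 1 and 659 and 661 CPM in line 2, against 874 and 871 CPM in OdG WT, and fell by 0.44 on the log2 scale for the mean of lines. Pgam2, the muscle form, was at the edge of detection, with 12 to 19 counts in each OdG KO library and 30 and 26 counts in OdG WT. Its call in line 1 (edgeR adjusted p = 0.0477) and line 2 (edgeR adjusted p = 0.0499) was lost with a replicate block, at adjusted p-values of 0.0512 and 0.0505. By DESeq2 the adjusted p of Pgam2 was 0.253 in line 1, 0.258 in line 2 and 0.154 for the mean of lines. With the 4 OdG KO libraries as a single group it was 0.0763 by edgeR. Without single libraries of the OdG table the Pgam2 value in line 2 had an adjusted p between 0.052 and 0.258.

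Gapdh and Eno1 could not be read as levels of their genes. The Gapdh transcript shares 82.5% of its 50-base windows with 222 other genes, and Gapdh had 457 and 223 counts in OdG KO line 1, 373 and 1605 counts in line 2, and 272 and 669 counts in OdG WT. It had 1196, 480 and 647 counts in EG1 KO, against 1201, 1049 and 1653 counts in EG1 WT. Replicates of a single group thus differed as widely as the groups. The call of a rise in line 2 (log2 fold change 1.04, edgeR adjusted p = 0.0392) became -0.28 (edgeR adjusted p = 0.556) without replicate 2 of that line and had an adjusted p of 0.147 without OdG WT replicate 1. Eno1 shares 72.2% of its windows, and had 9 and 2 counts in line 1, 10 and 7 counts in line 2 and 27 and 27 counts in OdG WT, so that it passed the filter on low counts through the WT libraries alone. It had 1 to 5 counts in each EG1 library and was not tested there. Of 10 listed near-identical copies of members, 2 had enough counts to be tested, and both fell in the mean of the OdG lines. The copy Eno1b took 1121 to 2701 counts per library and fell by 0.58 on the log2 scale (SE 0.04, edgeR adjusted p = 2.23e-10).

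Pgk1 itself shares 68.0% of its windows with 5 annotated copies, none of them in the count tables, so its values rest on how the counting treated such reads, which is not given in the sources used here. Of the other enolases, Eno2, the neuronal form, had 4.04 and 4.82 CPM in OdG KO line 1 and 3.84 and 4.31 CPM in line 2, against 14.0 and 12.6 CPM in OdG WT. It fell by 1.64 on the log2 scale (SE 0.12) for the mean of lines. In EG1 it had a log2 fold change of -0.42 that missed the threshold (edgeR adjusted p = 0.092). Eno3, the muscle form, had 4.2 to 5.25 CPM in the OdG KO libraries, against 6.01 and 5.16 CPM in OdG WT, and was not called in the 7 comparisons made here. In EG1 WT against OdG WT its log2 difference was 0.31 (SE 0.14) at the threshold (edgeR adjusted p = 0.05), and it passed at an adjusted p of 0.0453 with RLE scaling and of 0.0373 to 0.0458 without OdG WT replicate 1, EG1 WT replicate 2 or any single EG1 KO library.

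Pyruvate kinase and the lactate dehydrogenases, which end the pathway, also fell in OdG KO. Pkm, pyruvate kinase, had 2672 and 2637 CPM in OdG KO line 1 and 2826 and 2850.5 CPM in line 2, against 3579.9 and 3563 CPM in OdG WT. It fell by 0.43 on the log2 scale in line 1 and by 0.33 in line 2. Ldha, the lactate-forming dehydrogenase (GRCm38 chr7:46841475-46855627, plus strand), had 1084 and 1081 CPM in line 1 and 1128 and 1132 CPM in line 2, against 1856 and 1923 CPM in OdG WT. Ldhb, the heart-type subunit, had 56.5 and 57.0 CPM in line 1 and 54.9 and 58.6 CPM in line 2, against 117 and 118 CPM in OdG WT. None of these KO libraries overlapped OdG WT, and Ldha fell by 0.77 (SE 0.02) and Ldhb by 1.05 (SE 0.04) on the log2 scale for the mean of lines. In EG1 cells Ldhb had 61.2, 61.4 and 57.1 CPM in KO, against 72.3, 69.1 and 77.3 CPM in WT, and fell by 0.29 on the log2 scale (edgeR adjusted p = 0.000183). Pkm and Ldha did not pass the test in EG1, with log2 fold changes of -0.01 (edgeR adjusted p = 0.808) and -0.04 (edgeR adjusted p = 0.449), and their KO and WT libraries overlapped.

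The 2 lactate carriers moved by very different amounts. Slc16a3 (GRCm38 chr11:120948480-120960868, plus strand), the low-affinity exporter typical of strongly glycolytic cells, had 71.9 and 76.8 CPM in OdG KO line 1 and 91.5 and 90.6 CPM in line 2, against 374 and 363 CPM in OdG WT. Line 1 lay below line 2, and both lay far below OdG WT. The log2 fold change was -2.31 (SE 0.04, edgeR adjusted p = 6.5e-17) in line 1 and -2.01 (SE 0.04, edgeR adjusted p = 1.39e-16) in line 2. For the mean of lines Slc16a3 ranked 89 of 14413 genes from the largest fall. Slc16a1 (GRCm38 chr3:104638668-104658462, plus strand), the widely expressed carrier, had 408 and 402 CPM in line 1 and 415 and 415 CPM in line 2, against 457 and 455 CPM in OdG WT. Its libraries did not overlap either, but its log2 fold change was only -0.17 (SE 0.03) in line 1 and -0.13 (SE 0.03) in line 2.

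In EG1 cells Slc16a3 had 117, 99.3 and 106 CPM in KO, against 134, 131 and 132 CPM in WT. Every KO library was lower, with a log2 fold change of -0.31 (SE 0.05, edgeR adjusted p = 1.37e-05). Slc16a1 had 278, 274 and 289 CPM in EG1 KO, against 291, 287 and 282 CPM in EG1 WT, and these groups overlapped (log2 fold change -0.04, edgeR adjusted p = 0.554).

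**Figure D2:**
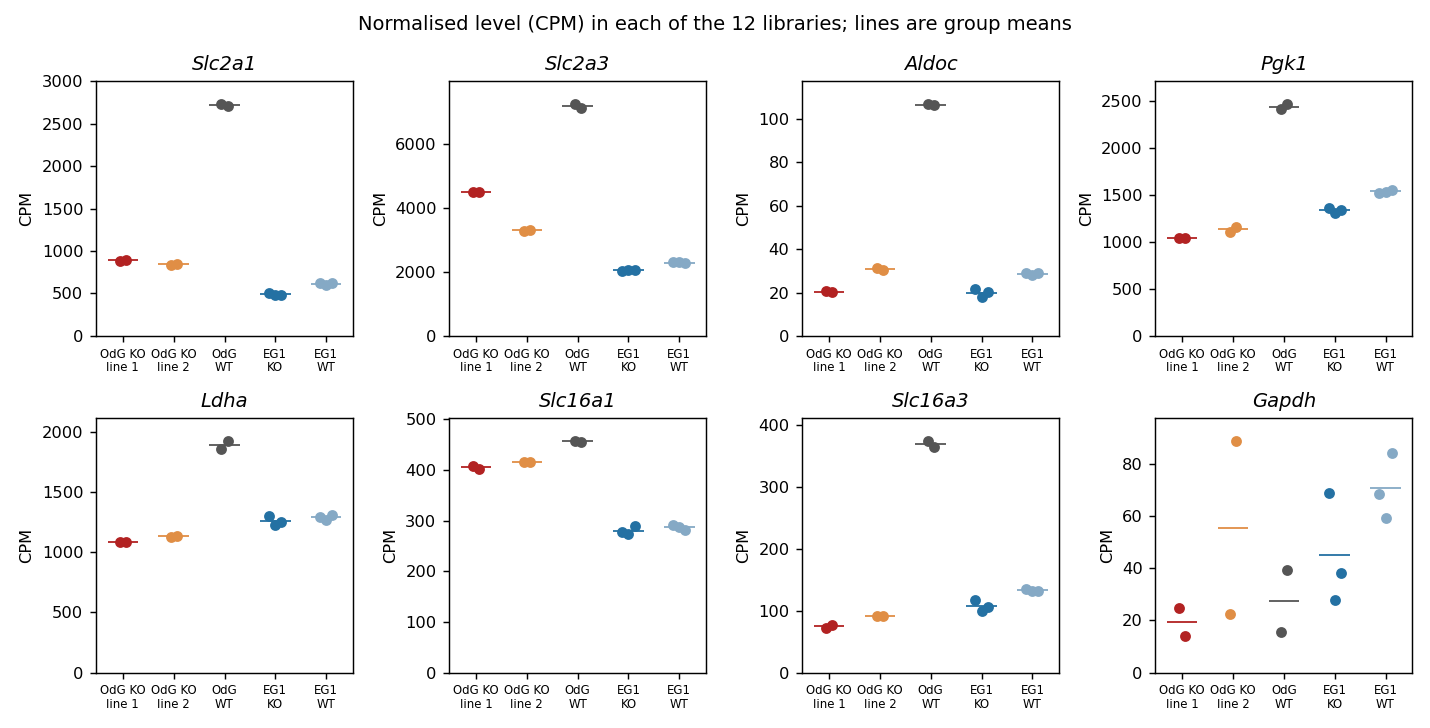
Normalised level (vertical axis, CPM from 0) of 8 genes in each of the 12 libraries, grouped from left to right as OdG KO line 1, OdG KO line 2, OdG WT, EG1 KO and EG1 WT, with a line at each group mean. Both OdG WT libraries stand above all others for each gene but Gapdh, by most for Slc2a1, Aldoc and Slc16a3 and by little for Slc16a1. The Gapdh libraries scatter widely within groups.

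Of the 4 PFKFB enzymes, Pfkfb3, the strongly kinase-active form, fell most clearly. It had 55.1 and 52.9 CPM in OdG KO line 1 and 59.1 and 54.4 CPM in line 2, against 110.2 and 109 CPM in OdG WT, and 53.0, 55.0 and 55.5 CPM in EG1 KO, against 62.2, 64.9 and 69.8 CPM in EG1 WT. In both parental lines all KO libraries lay below all WT libraries. The log2 fold change was -0.98 (SE 0.04, edgeR adjusted p = 2.56e-12) for the mean of the OdG lines and -0.28 (SE 0.05, edgeR adjusted p = 0.000467) in EG1. Pfkfb1 had 22.9 and 22.8 CPM in line 1 and 18.3 and 19.1 CPM in line 2, against 26.7 and 30.2 CPM in OdG WT, and fell by 0.46 on the log2 scale for the mean of lines. Pfkfb4 was low, at 3.42 to 4.09 CPM in the OdG KO libraries, against 6.36 and 5.16 CPM in OdG WT. It fell by 0.60 on the log2 scale for the mean of lines (edgeR adjusted p = 0.00277), with an adjusted p of 0.0648 without OdG WT replicate 1.

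Pfkfb2 was the 1 regulator without a common direction in the OdG lines. It had 17.3 and 20.1 CPM in line 1 and 24.8 and 24.5 CPM in line 2, against 24.7 and 22.6 CPM in OdG WT. It fell by 0.35 on the log2 scale in line 1 (edgeR adjusted p = 0.00463), a call with an adjusted p of 0.102 without replicate 1 of that line, and had a log2 fold change of 0.06 in line 2 (edgeR adjusted p = 0.558). In EG1 cells the value was 0.22 on the log2 scale (edgeR adjusted p = 0.0921).

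The branch enzymes were mixed. Galk1, galactokinase, had 99.9 and 98.3 CPM in OdG KO line 1 and 88.9 and 86.6 CPM in line 2, against 147 and 145 CPM in OdG WT, and fell by 0.64 on the log2 scale (SE 0.03) for the mean of lines. G6pdx, which opens the pentose phosphate pathway, had 159 and 162 CPM in line 1 and 143 and 151 CPM in line 2, against 153 and 147 CPM in OdG WT. Its log2 fold change was 0.10 in line 1 (SE 0.04, edgeR adjusted p = 0.058) and -0.02 in line 2 (SE 0.04, edgeR adjusted p = 0.63), with overlapping libraries in line 2. The value in line 1 passed at an adjusted p of 0.0139 without OdG WT replicate 1. Bpgm, which makes bisphosphoglycerate, had 16.5 and 18.0 CPM in line 1 and 14.3 and 15.3 CPM in line 2, against 12.8 and 15.6 CPM in OdG WT. It rose by 0.28 on the log2 scale in line 1 (edgeR adjusted p = 0.0431), but its adjusted p was 0.357 without OdG WT replicate 1 and between 0.0507 and 0.215 without any single KO library.

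Seen by step, with isozymes summed per kilobase of exon, every step summed stood below OdG WT in both lines, by different amounts. The uptake carriers stood at 49.5% of the OdG WT level in line 1 and 39.4% in line 2. Glucose phosphate isomerase stood at 41.1% in line 1 and 47% in line 2, phosphoglycerate kinase at 42.8% in line 1 and 46.4% in line 2, phosphofructokinase at 50.5% in line 1 and 51.9% in line 2, and triose phosphate isomerase at 53.4% in line 1 and 52.6% in line 2. Aldolase was at 55.4% in line 1 and 64.5% in line 2, lactate dehydrogenase at 56.2% in line 1 and 58.5% in line 2, the lactate carriers at 61.2% in line 1 and 64.3% in line 2, and the PFKFB enzymes at 62.2% in line 1 and 62.8% in line 2. The steps nearest to OdG WT were hexokinase at 68.5% in line 1 and 72% in line 2, phosphoglycerate mutase at 71.8% in line 1 and 75.5% in line 2, and pyruvate kinase at 74.3% in line 1 and 79.5% in line 2. In EG1 KO the same sums ran from 84.9% of EG1 WT for glucose phosphate isomerase to 99.4% for pyruvate kinase. These sums leave out Gapdh and the enolases, depend on the exon lengths used where isozymes were added, and are given without a test.

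The makeup of several steps also differed between groups. The shares depend on the length used, here that of merged exons. For Pfkp these covered 13401 bases, against 4145 in its longest protein-coding transcript. The same lengths were 3340 and 2879 bases for Pfkm, 8532 and 4278 for Hk1, and 7245 and 3959 for Slc2a3. Shares by transcript length were not computed. Slc16a3 supplied 13.3% ± 0.64 of the lactate carrier level per kilobase in OdG KO line 1 and 15.4% ± 0.10 in line 2, against 40.2% ± 0.40 in OdG WT (SD, n = 2 each). In EG1 cells it supplied 24.2% ± 1.5 in KO and 27.8% ± 0.24 in WT (SD, n = 3 each). Slc2a1 made up 29.1% ± 0.09 of the uptake carriers in line 1 and 34.6% ± 0.03 in line 2, against 43.9% ± 0.18 in OdG WT. Hk1 made up 14.6% ± 0.36 of the hexokinases in line 1 and 13.3% ± 0.22 in line 2, against 22.2% ± 0.17 in OdG WT. Aldoc made up 1.32% ± 0.02 of aldolase in line 1 and 1.72% ± 0.04 in line 2, against 3.84% ± 0.05 in OdG WT. In each of these the OdG KO lines had a lower share of the isozyme than OdG WT by far more than the spread between libraries. Pfkm went the other way, with 28.8% ± 0.62 of phosphofructokinase in line 1 and 23.4% ± 0.33 in line 2, against 21.9% ± 0.01 in OdG WT (SD, n = 2 each throughout). Only 2 libraries stand behind each OdG value, so an exact permutation test of 1 line against WT could not go below 0.333 and none was made.

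**Figure D3:**
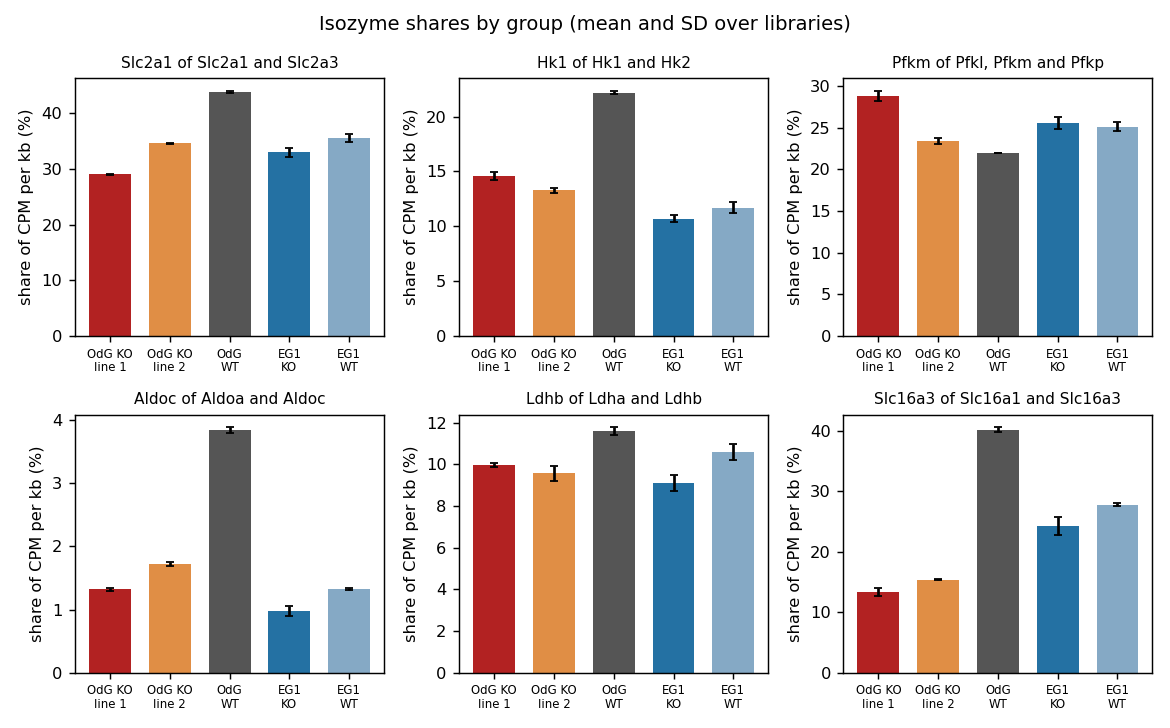
Share of an isozyme (vertical axis, percent of the summed CPM per kilobase of the genes named in each panel) by group, as the mean with SD over the libraries of the group. From left to right the bars are OdG KO line 1, OdG KO line 2, OdG WT, EG1 KO and EG1 WT. OdG WT has the tallest bar for Slc2a1, Hk1, Aldoc, Ldhb and Slc16a3 and the shortest for Pfkm.

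In EG1 cells, too, members fell, by 0.09 (Aldoa) to 0.52 (Aldoc) on the log2 scale where called, leaving out Gapdh. Of the 29 members tested, 14 fell and 0 rose in EG1 KO (1, Pfkfb2, at an unadjusted p under 0.05, and 0 by DESeq2), whereas 4.06% of all 14016 genes were lower and 3.60% higher. Their median log2 fold change was -0.16, against 0.00 for all genes. In 17 of the 30 members all 3 KO libraries lay below all 3 WT libraries, which was so for 11.5% of 14977 genes. The 14 that fell were Slc2a1, Slc2a3, Hk1, Gpi1, Pfkl, Pfkp, Aldoa, Aldoc, Tpi1, Gapdh, Pgk1, Ldhb, Slc16a3 and Pfkfb3. The fall of Gapdh had an adjusted p of 0.518 by DESeq2 and of 0.152 in the edgeR fit over all 12 libraries. By DESeq2, 13 members fell in EG1 KO, beside 309 of all genes called lower.

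The OdG and EG1 comparisons share no library, and their effects can be set side by side. Leaving out Gapdh and Eno1, 13 of the 28 remaining members were lower in both parental lines, 11 were lower in OdG KO (mean of lines) and not called in EG1 KO, and 4 were called in neither. Of all 13630 genes tested in both tables, 2.56% were lower in both, 27.8% were lower in OdG KO and not called in EG1 KO, and 37.3% were called in neither. The share of members lower in OdG KO and not called in EG1 KO thus lay nearer to its background than the share lower in both did. In the 13 genes called in both, the OdG log2 fold change was 3.57 to 7.79 times that in EG1, from Pfkfb3 to Aldoa. Across these 28 genes the 2 sets of log2 fold changes had a Pearson r of 0.828 and a Spearman rho of 0.856, and across all 13630 genes tested in both tables the values were 0.273 and 0.345. These are descriptions across genes, which are not independent replicates.

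The difference between the KO effects was tested as an interaction term, with all 12 libraries fitted together. Of the 30 members, 25 had a lower (more negative) effect in OdG (24 without Eno1) and 0 a higher one (1, Gapdh, at an unadjusted p under 0.05, and 0 by DESeq2), beside 19.5% of all 14977 genes lower and 20.2% higher. The median difference was -0.67 on the log2 scale. It was -1.86 (SE 0.06, edgeR adjusted p = 2.31e-20) for Slc16a3, -1.57 (SE 0.09, edgeR adjusted p = 8.69e-15) for Aldoc and -1.32 (SE 0.04, edgeR adjusted p = 1.81e-21) for Slc2a1. For Slc16a1 it was only -0.12 (SE 0.04, edgeR adjusted p = 0.0301), with adjusted p-values of 0.0523 to 0.119 when a single library was left out (OdG WT replicate 1, any OdG KO library, EG1 WT replicate 2 or 3, or EG1 KO replicate 3). Gapdh, Pgam2, Eno3, Bpgm and G6pdx did not pass the test.

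**Figure D4:**
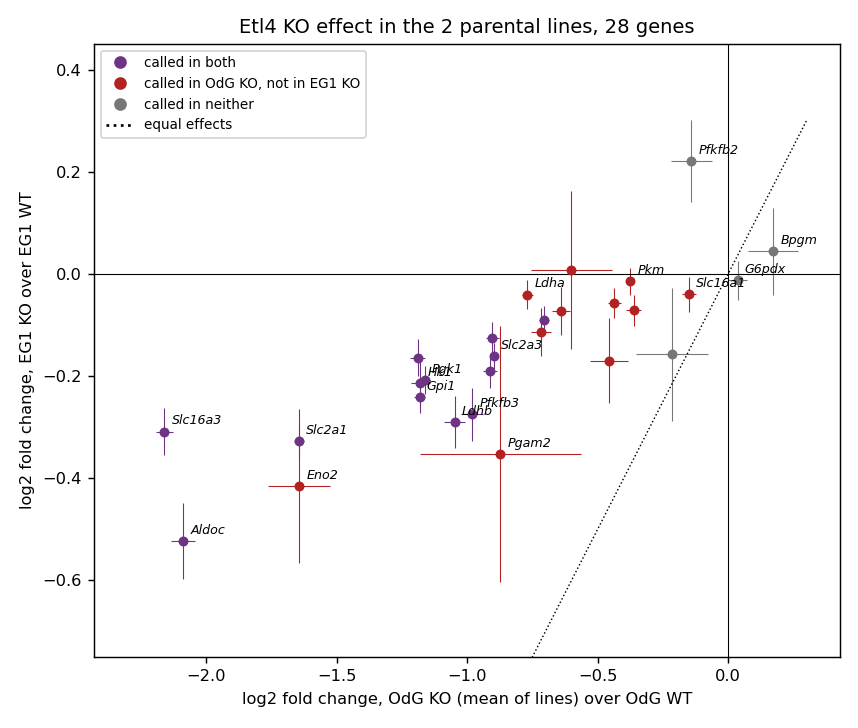
Log2 fold change of EG1 KO over EG1 WT (vertical axis) against that of OdG KO, mean of lines, over OdG WT (horizontal axis) for the 28 members other than Gapdh and Eno1, with bars of 1 standard error and a dotted line of equal effects. Colours mark the 13 genes called in both, the 11 called in OdG KO and not in EG1 KO, and the 4 called in neither. Most points lie above the dotted line, with smaller changes in EG1 than in OdG.

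The WT cells of the 2 parental lines also differed in most members. In EG1 WT against OdG WT, 25 of the 30 members were lower (24 without Eno1) and 1, Gapdh, was higher, beside 35.4% of all 14977 genes lower and 35.0% higher. The median member was lower by a log2 difference of -0.67. The log2 difference was -2.16 (SE 0.03) for Slc2a1, -1.91 (SE 0.06) for Aldoc, -1.66 (SE 0.02) for Slc2a3, -1.49 (SE 0.04) for Slc16a3 and -0.68 (SE 0.03) for Slc16a1. Among the members called lower, Pkm had the smallest difference, at -0.18 (SE 0.03, edgeR adjusted p = 3.36e-07). Both OdG WT libraries lay above all 10 other libraries in 24 of the 30 members, as in 19.1% of all 14977 genes. This comparison shares the OdG WT libraries with those of the OdG KO lines, and parental line and table cannot be told apart in it.

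Other cell types were looked for because OdG WT stands apart. The summed level of 12 fibroblast (feeder cell) markers was 35.7 to 37.4 CPM in OdG KO line 1, 18.1 to 19.5 CPM in line 2, 48.2 to 53.2 CPM in OdG WT, 13.6 to 16.1 CPM in EG1 KO and 11.7 to 14.0 CPM in EG1 WT. It was highest in OdG WT, where Fap was at 0 and Pdgfrb and Col1a1 led the sum. In OdG KO line 1, Col3a1, Postn, Lum and Fap were at 0, in line 2 Twist2 and Fap were, in EG1 KO Col3a1, Postn, Dcn, Lum and Fap were, and in EG1 WT Postn, Dcn, Lum and Fap were. Of the 6 markers tested in OdG, 3 fell in the mean of the KO lines, beside 30.5% of all genes lower. The 8 primitive endoderm markers summed to 7.11 to 8.57 CPM in line 1, 10.1 to 11 CPM in line 2, 12.6 to 12.8 CPM in OdG WT, 7.33 to 8.36 CPM in EG1 KO and 8.01 to 8.89 CPM in EG1 WT. The 7 trophoblast markers summed to 248 to 249 CPM in line 1, 241 to 254 CPM in line 2 and 187 CPM in OdG WT, and their makeup differed between groups. Tfap2c had 10.8 and 9.82 CPM in line 1 and 113 and 109 CPM in line 2, against 0.286 and 0.469 CPM in OdG WT. Krt8 had 117 and 118 CPM in line 1 and 49.1 and 46.5 CPM in line 2, against 86.6 and 89.3 CPM in OdG WT. Krt7 had 10.1 and 9.88 CPM in line 1 and 3.54 and 3.43 CPM in line 2, against 13.2 and 15.8 CPM in OdG WT. Cdx2 had 109 and 110 CPM in line 1 and 87.0 and 80.6 CPM in line 2, against 85.4 and 79.7 CPM in OdG WT. Tfap2c thus led the sum in line 2, and Krt8 and Cdx2 led it in line 1 and in OdG WT. Of the 6 trophoblast markers tested, 2 rose and 3 fell in the mean of the KO lines, beside 29.4% of all genes higher and 30.5% lower. Tfap2c passed the filter on low counts through the OdG KO libraries alone, and Hand1 through the OdG WT libraries alone. The values of these genes are therefore not tests. The 5 neural markers summed to 52.2 to 52.5 CPM in line 1, 44.4 to 49.8 CPM in line 2 and 18.3 to 21.8 CPM in OdG WT. Tubb3 led this sum in both KO lines, with 35.2 and 36.0 CPM in line 1 and 28.2 and 31.1 CPM in line 2, against 7.44 and 9.33 CPM in OdG WT. Pax6, Sox1 and Neurod1 had at most 1.99 CPM in any OdG library. In EG1 the trophoblast markers summed to 92.8 to 94.1 CPM in KO and 91.5 to 95.6 CPM in WT, of which Tfap2c held 85.9 to 88.3 CPM in KO and 85.1 to 90.5 CPM in WT. There the neural markers summed to 73.8 to 85.2 CPM in KO and 62.1 to 64.0 CPM in WT, of which Tubb3 held 61.6 to 72.4 CPM in KO and 49.9 to 52.5 CPM in WT. The part of these cell types in the fall of the glycolysis genes was not tested.

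The 2 OdG KO lines differed from each other by smaller amounts. In line 2 against line 1, 13 members were higher and 6 lower, beside 18.6% of all genes higher and 19.2% lower, and the median member difference was 0.05 on the log2 scale. Without OdG KO line 1 replicate 2 the number of members called was 11 in place of 19, and it was 12 without any other single KO library. Aldoc was higher in line 2 by 0.61 (SE 0.07, edgeR adjusted p = 2.14e-06) and Slc16a3 by 0.30 (SE 0.05, edgeR adjusted p = 5.75e-05), whereas Slc2a3 was lower by a log2 difference of -0.44, as given above. Slc2a1 differed by only -0.07 (SE 0.02, edgeR adjusted p = 0.0295), with adjusted p-values of 0.0941 to 0.227 without any single KO library. A higher level in line 2 was also called for Gapdh, which differed between the replicates of that line.

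The counts of the neighbouring gene lists that follow stand against the background given above, 29.4% of all genes higher and 30.5% lower in OdG KO (mean of lines). For EG1 KO the background was 3.60% of all genes higher and 4.06% lower. Among 14 genes of pyruvate entry into mitochondria, 4 fell and 6 rose in OdG KO, mean of lines. Those that fell included Pdk1, the kinase that holds back pyruvate dehydrogenase, with 48.2 and 47.4 CPM in line 1 and 75.2 and 77.3 CPM in line 2, against 146 and 141 CPM in OdG WT. Pdk1 fell by 1.24 on the log2 scale (SE 0.04) in OdG KO and by 0.32 (SE 0.05, edgeR adjusted p = 0.000154) in EG1 KO. Of 11 genes of the pentose phosphate pathway, 3 rose and 2 fell in OdG KO. Pgd, which makes NADPH, rose by 0.38 on the log2 scale (SE 0.03) in OdG KO. Of the 7 tested genes of gluconeogenesis and the glycerol shuttle, 3 rose and 2 fell. They included Tigar, which lowers the activator of phosphofructokinase and had 88.1 and 86.5 CPM in line 1 and 91.1 and 89.6 CPM in line 2, against 46.9 and 46.4 CPM in OdG WT. Tigar rose by 0.93 on the log2 scale (SE 0.04) in OdG KO and by 0.17 (SE 0.04, edgeR adjusted p = 0.00882) in EG1 KO. The mitochondrial glycerol phosphate dehydrogenase Gpd2 rose by 0.79 (SE 0.05) in OdG KO and by 0.23 (SE 0.04, edgeR adjusted p = 0.000899) in EG1 KO.

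Among the 8 tested of 15 further glucose and monocarboxylate carriers and their chaperones, 3 fell and 1 rose in OdG KO. Bsg, the chaperone that brings the lactate carriers to the membrane, had 431 and 432 CPM in line 1 and 392 and 391 CPM in line 2, against 787 and 811 CPM in OdG WT, and fell by 0.96 on the log2 scale (SE 0.03). The 1 that rose was Slc5a1, a sodium-coupled glucose carrier, with 1.02 and 1.88 CPM in line 1 and 2.28 and 2.49 CPM in line 2, against 0.229 and 0.469 CPM in OdG WT. Its log2 fold change was 2.39 (SE 0.40) for the mean of lines, from 4 and 8 counts in the OdG WT libraries. Slc5a1 passed the filter on low counts in OdG through the KO libraries alone, so it had to differ. Its OdG value is thus a description and not a test. In EG1 cells Slc5a1 had 13.6, 13.1 and 12.6 CPM in KO, against 8.81, 8.21 and 8.31 CPM in WT, and rose by 0.63 on the log2 scale (SE 0.10, edgeR adjusted p = 5.27e-05). With Emb, another chaperone of lactate carriers, which rose by 0.18 (SE 0.06, edgeR adjusted p = 0.0453), it was 1 of 2 of these 8 genes that rose in EG1 KO. Of the 9 tested genes of the galactose and hexose phosphate branch, 5 fell and 1 rose in OdG KO, and 3 of 10 fell in EG1 KO. In EG1 KO, 4.06% of all genes were lower and 3.60% higher. Pgm2, a phosphoglucomutase, had 71.8 and 70.2 CPM in line 1 and 74.0 and 71.5 CPM in line 2, against 202 and 208 CPM in OdG WT. It fell by 1.51 on the log2 scale (SE 0.03) in OdG KO and by 0.35 (SE 0.04, edgeR adjusted p = 9.24e-07) in EG1 KO. Of the 5 glucose-sensing genes, 3 fell and 2 rose in OdG KO, and Txnip, which restrains glucose uptake, was among those that fell, by 0.92 on the log2 scale (SE 0.03). Of 10 tested isozymes outside the set, 5 fell and 1 rose in OdG KO. Among these 10, Hkdc1 had 13 and 10 counts in OdG WT and 2 or 3 counts in each OdG KO library. It passed the filter on low counts through the OdG WT libraries alone, so its value is not a test.

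Of the 12 regulators of glycolysis and oxygen sensing, 5 fell and 5 rose in OdG KO. In EG1 KO 2 fell and 1 rose, beside 4.06% of all genes lower and 3.60% higher there. Those that fell furthest were the oxygen-sensing prolyl hydroxylases Egln3 and Egln1, themselves known hypoxia targets. Egln3 had 27.8 and 25.6 CPM in line 1 and 63.9 and 62.6 CPM in line 2, against 143 and 138 CPM in OdG WT. Egln1 had 41.2 and 42.9 CPM in line 1 and 58.3 and 57.1 CPM in line 2, against 138 and 138 CPM in OdG WT. In both, line 1 was below line 2 and both lines were below OdG WT. Egln3 fell by 1.77 (SE 0.04) and Egln1 by 1.48 (SE 0.04) on the log2 scale in OdG KO, and in EG1 KO by 0.45 (SE 0.05, edgeR adjusted p = 3.2e-07) and 0.24 (SE 0.05, edgeR adjusted p = 0.00213). Mycn had 312 and 291 CPM in line 1 and 218 and 212 CPM in line 2, against 188 and 182 CPM in OdG WT. It was the 1 that rose in EG1 KO, by 0.16 (SE 0.04, edgeR adjusted p = 0.00323). Hif1a had 156 and 156 CPM in line 1 and 169 and 164 CPM in line 2, against 123 and 133 CPM in OdG WT. The part of these regulators in the fall of the members was not tested.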

How the data were processed

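RNA-seq counts of 12 libraries were used, grouped by sample title. The values the authors deposited are raw counts, whole numbers for each of 24421 gene symbols, in 2 tables. Per the submitters' processing notes, the tools were CASAVA, HISAT2 2.1.0, featureCounts 1.6.4 and DESeq2, with the mm10 build. Of the annotation, the strand setting and the handling of reads that map to several places nothing is said in the sources used here, so genes with near-identical copies are uncertain. Trizol RNA went into NEBNext libraries, per the labels' protocols. Every count column was matched to a sample, and 0 were left over.

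From these counts, low genes were dropped by filterByExpr, library sizes were adjusted by TMM, and edgeR 4.0.16 in R 4.3.3 fitted group means by quasi-likelihood, separately to the OdG table (14413 genes, biological coefficient of variation 3.34%) and the EG1 table (14016 genes, 3.53%). The interaction and the comparison of WT cells used 1 fit over 12 libraries (14977 genes). All tests were two-sided and Benjamini-Hochberg adjusted over all genes tested, and calls were made under 0.05. A standard error is the log2 fold change divided by the root of its F statistic. The OdG mean of lines weighs both lines equally. CPM levels were scaled over all 12 libraries together, so a fold change from a single table can differ slightly from the ratio of the CPM values printed. Total counts of 16110028 to 19706599 per library set the precision. Replicates of a group differed by more than counting noise (chi-square over degrees of freedom from 1.84 to 3.86), which does not show that they came from separate cultures, and no libraries were merged. Per-kilobase levels and positions used merged exons of GENCODE M21 (GRCm38), and shared sequence was the share of 50-base transcript windows found in another gene.

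The members and lists were chosen with earlier results of these data known. All 30 members are accounted for, and other genes were named from fixed lists, up to 3 per list by adjusted p in each of OdG KO and EG1 KO. Hif1a and Hkdc1, which are on these lists, and the cell type markers were named outside that limit. Alternatives were DESeq2 1.42.0, RLE scaling, library totals only, no filter, a replicate block, leaving out each library, 1 fit over all libraries and the 4 OdG KO libraries as a single group. A count without members that share over 50% of their windows was chosen after seeing the data. The scripts were tested on simulated data.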

Additional observations from a re-analysis of the deposited data

Results flagged for a closer look

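For 24 members the KO effect differed between the 2 parental lines by a test of the difference itself (an interaction in edgeR over all 12 libraries, adjusted p under 0.05). Each value is the log2 effect in OdG minus that in EG1, and each was negative. For the carriers it was -1.32 for Slc2a1, -0.74 for Slc2a3, -0.12 for Slc16a1 and -1.86 for Slc16a3. For the upper pathway it was -0.97 for Hk1, -0.30 for Hk2, -0.95 for Gpi1, -1.03 for Pfkl, -0.61 for Pfkm and -0.79 for Pfkp. From aldolase to enolase it was -0.62 for Aldoa, -1.57 for Aldoc, -0.73 for Tpi1, -0.96 for Pgk1, -0.39 for Pgam1 and -1.24 for Eno2. Eno1 also met this threshold, at -2.88, but it passed the filter on low counts through the OdG WT libraries alone (27 and 27 counts, against 1 to 10 in the others), so its value is a description and not a test. At the end of the pathway it was -0.37 for Pkm, -0.74 for Ldha and -0.77 for Ldhb. Among the regulators and branches it was -0.29 for Pfkfb1, -0.37 for Pfkfb2, -0.71 for Pfkfb3, -0.62 for Pfkfb4 and -0.58 for Galk1. Some of these calls were lost under an alternative. Pfkfb1 had an adjusted p of 0.109 by DESeq2 and of 0.0562 to 0.203 without OdG WT replicate 2, OdG KO line 2 replicate 1, EG1 WT replicate 3 or EG1 KO replicate 1 or 2. Pfkfb4 had 0.0971 by DESeq2 and 0.0524 to 0.169 without OdG WT replicate 1, OdG KO line 2 replicate 1, EG1 WT replicate 2 or EG1 KO replicate 2. Pfkfb2 had 0.0789 without OdG WT replicate 1 and 0.0502 without EG1 WT replicate 1. Slc16a1 had 0.0523 to 0.119 without 8 of the 12 libraries in turn. Parental line and count table cannot be told apart in these differences.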

How the results depend on the processing

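The calls of the members held in nearly every alternative. Of 2838 values of single members under the alternatives, 2694 kept their side of the threshold, 123 no longer passed it and 20 came to pass it. The remaining 1 reversed, that is, its sign changed and it passed in the main fit or in the alternative. Changes of sign where neither passed were not counted, so direction was not checked for such values. The reversed one is Gapdh in OdG KO line 2, which ranged from -0.28 (without replicate 2 of that line) to 1.86 (without OdG WT replicate 2) when single libraries were left out. The number of members that differed between line 2 and line 1 was 12 by DESeq2, against 19 by edgeR, and 11 to 19 when single libraries were left out. No other of the 7 counts of members moved by over 1.5 times under an alternative run. The replicate numbers do not pair the libraries (correlations of same-numbered libraries -0.0464 to 0.0376), and a replicate block gave 26 members called in line 1, 25 in line 2, 25 for the mean of lines, 16 between the lines, 14 in EG1, 26 for the interaction and 26 between the WT cells. Without the 3 members that share most of their sequence (Gapdh, Eno1 and Pgk1) the counts were 25, 23, 23, 17, 12, 23 and 23 in the same order, an alternative chosen after seeing the data. Over all genes, 4609 were called with the 4 OdG KO libraries as a single group, against 8638 for the mean of lines. DESeq2 called 3230 genes between the OdG KO lines, against 5454 by edgeR, and 659 in EG1 KO, against 1074. With library totals as the only scaling, 332 genes were higher and 698 lower in EG1 KO, against 505 higher and 569 lower with TMM, while 0 members rose and 14 fell under both. Members with few counts (Pgam2, Pfkfb4) are limited by depth, and Eno1 by sharing 72.2% of its windows with other genes.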
